A study of Mus musculus with 2 samples.

Results

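The regions described here lie near start sites of 4 genes that act on chromatin silencing: Setdb1, its partners Atf7ip and 2810474O19Rik (now called Resf1), and Dnmt3a. They were taken by gene name from a table of 1381 H3K4me3 regions near gene start sites, each with a value of the silencing mark H3K9me3 in 2 libraries. Each gene had a single region, so 4 of the 1381 regions are described. Atf7ip and 2810474O19Rik were picked because their H3K9me3 in the knockout library was among the highest of the table, so the levels and ratios below are descriptions and carry no test.

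The mark was profiled by ChIP-seq, in which an antibody pulls down chromatin fragments that are then sequenced, in LSK cells. These bone marrow cells lack lineage markers, carry Sca-1 and c-Kit, and include the haematopoietic stem cells. The control library came from WT control mice and the knockout library from Kdm4a, b c triple knockout mice, both of strain C57BL6. Mice of both kinds were given tamoxifen, which induces the conditional deletion, and the cells were sorted 2 weeks afterwards. Each genotype had 1 library. The driver of the inducible deletion, the age of the mice and how many mice went into a library are not stated in the labels. Nothing in the table checks the deletion or the identity of the sorted cells, because it holds no expression values and no region of Kdm4a, Kdm4b or Kdm4c.

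Kdm4 proteins are demethylases that act on trimethylated H3K9. Setdb1 is a methyltransferase that writes this mark, and it is brought to retroviral sequences and many genes by KRAB zinc finger proteins through the corepressor Trim28. Atf7ip binds Setdb1 in the nucleus and protects it from degradation. Resf1 binds Setdb1 and takes part in the silencing of endogenous retroviruses in mouse embryonic stem cells. Dnmt3a adds methyl groups to cytosine in DNA at sites not yet methylated and restrains the self-renewal of haematopoietic stem cells, and Setdb1 is needed to maintain these cells. H3K4me3 marks start sites of active genes, so the regions of the table are places where an activating mark was called and the silencing mark was then counted.

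The 4 promoter sequences are shown because the regions lie beside the start sites of these genes, and they differ in their content of CpG, the dinucleotide that Dnmt3a methylates. Each sequence is the RefSeq promoter window (assembly GRCm38.p6) from 250 bases before the listed start site to 50 bases from it onward, read along the gene, with every CpG in capitals. The windows are chr3:95357153-95357452 on the minus strand for Setdb1, and on the plus strand chr6:136518601-136518900 for Atf7ip, chr6:149309164-149309463 for Resf1 and chr12:3891494-3891793 for Dnmt3a.
Setdb1: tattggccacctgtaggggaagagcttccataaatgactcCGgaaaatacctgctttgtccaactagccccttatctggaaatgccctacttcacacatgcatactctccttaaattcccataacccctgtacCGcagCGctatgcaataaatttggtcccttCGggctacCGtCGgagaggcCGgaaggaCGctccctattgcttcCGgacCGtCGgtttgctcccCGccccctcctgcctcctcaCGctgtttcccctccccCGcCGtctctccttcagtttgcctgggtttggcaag
Atf7ip: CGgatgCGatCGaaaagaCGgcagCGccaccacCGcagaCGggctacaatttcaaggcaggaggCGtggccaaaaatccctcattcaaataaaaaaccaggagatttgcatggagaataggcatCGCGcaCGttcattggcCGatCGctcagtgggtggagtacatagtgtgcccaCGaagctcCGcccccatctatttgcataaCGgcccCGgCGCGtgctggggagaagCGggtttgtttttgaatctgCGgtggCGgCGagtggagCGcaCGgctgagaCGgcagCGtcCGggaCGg
Resf1: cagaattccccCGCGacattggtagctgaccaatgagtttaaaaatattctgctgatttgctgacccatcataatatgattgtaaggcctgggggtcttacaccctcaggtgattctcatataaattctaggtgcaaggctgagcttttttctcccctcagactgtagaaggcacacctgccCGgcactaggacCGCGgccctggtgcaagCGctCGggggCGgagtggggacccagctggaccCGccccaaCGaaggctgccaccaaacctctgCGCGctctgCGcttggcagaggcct
Dnmt3a: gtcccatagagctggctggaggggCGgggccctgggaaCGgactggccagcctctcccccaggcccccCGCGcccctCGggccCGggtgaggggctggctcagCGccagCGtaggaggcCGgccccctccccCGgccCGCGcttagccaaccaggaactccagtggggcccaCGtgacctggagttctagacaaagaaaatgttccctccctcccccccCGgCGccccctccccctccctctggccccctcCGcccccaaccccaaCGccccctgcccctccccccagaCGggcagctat

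Atf7ip was the member richest in CpG at its listed start. Its window held 29 CpG, more than 87.1% of the 32817 RefSeq promoter windows. The Dnmt3a window held 18, the Setdb1 window 15 and the Resf1 window 13, more than 70.3%, 65.4% and 62.1% of the windows. The median was 7 over all windows and 21 over the 875 windows placed around a start site listed in the table. Resf1, Setdb1 and Dnmt3a thus lay below the median of the listed start sites and Atf7ip above it. The share of G and C was 74.0% for Dnmt3a, 58.7% for Atf7ip, 56.0% for Resf1 and 55.3% for Setdb1, against a median of 60.0% at listed start sites.

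Of 6 promoter motifs searched on both strands, GGGCGG (the GC box) was in all 4 windows and in 35.6% of all windows. CCAAT was in the windows of Setdb1, Atf7ip and Resf1 but not of Dnmt3a, and in 37.4% of all windows. CCGGAAG (a motif of ETS factors) stood at 2 places in the Setdb1 window and in none of the others, and 8.86% of all windows hold it. TATAAA was in the Resf1 window alone of the 4 (13.6% of all windows) and CACGTG in the Dnmt3a window alone (7.15%). TGACGTCA was in none of the 4 and in 1.79% of all windows. The shares were counted over all windows and not over those at listed start sites, which are richer in G and C (median 60.0% against 52.7%). They therefore do not show that a motif is particular to these genes. A match is only a run of letters, and no binding was measured.

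None of the 4 H3K4me3 regions covered the start site it was assigned to, while 324 of the 1381 regions (23.5%) did. The Setdb1 region (mm10, chr3:95356619-95357017) began 185 bp downstream of its start and lay within the gene. The Atf7ip region (chr6:136518957-136519755) began 106 bp downstream of its start, also within the gene. On the other side, the 2810474O19Rik region (chr6:149308741-149309292) ended 122 bp before the start, in no RefSeq gene. It was the only one of the 4 that reached into its promoter window, over 129 bases. Exons, introns and UTRs were not annotated here.

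The Dnmt3a region (chr12:3890771-3891485) ended 259 bp before a start site that lies deep inside the gene. Dnmt3a has an internal promoter that gives a shorter form of the protein, and the listed start at 3891744 lies 84.6 and 84.8 kb downstream of the other 2 Dnmt3a starts in RefSeq. The deposited label "Upstream" is relative to this internal start, and the region lies wholly within the RefSeq gene (chr12:3801559-3914443). It also lies within the non-coding gene Gm31623. The windows at the other 2 starts held 46 and 47 CpG against 18 at the internal start. The table has no region at those starts, and absence from this selected table gives no level there.

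**Figure D1:**
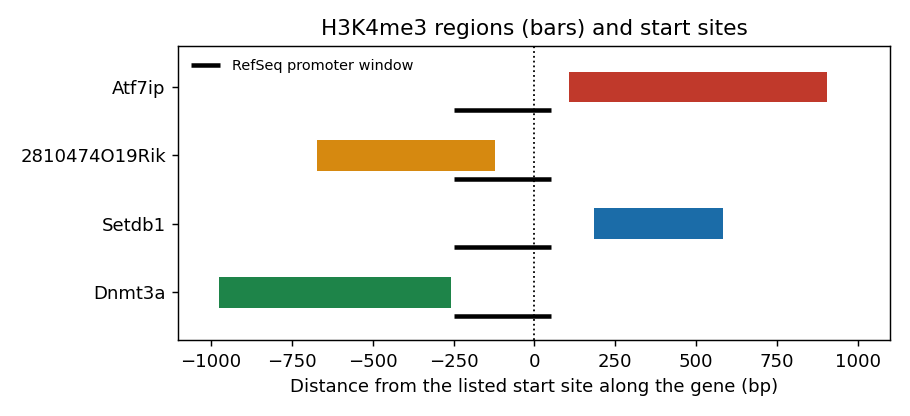
Bars show the 4 H3K4me3 regions by distance in bp from the listed start site (dotted line, 0), in the direction of the gene, and black lines show the RefSeq promoter windows. The Atf7ip and Setdb1 bars begin 106 and 185 bp downstream of the start, and the 2810474O19Rik and Dnmt3a bars end 122 and 259 bp upstream of it.

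H3K9me3 is given in RPM, reads scaled to library size, and every value was a whole number of reads after division by the worth of 1 read. Reads per region are therefore given, with exact 95% Poisson intervals that cover counting error only. The control library held 24673463 reads behind this scaling and the knockout library 26061344. The region table is a selection: its lowest knockout to control ratio was 2.01, so a ratio above 2 is a property of every row and says nothing about the 4 genes. No library of unprecipitated chromatin was analysed here, so a count does not show that H3K9me3 stood above background. In pooled cells, a larger share of cells with the mark and more of the mark per cell cannot be told apart.

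At Atf7ip the control library had 13 reads (6.92 to 22.2) and the knockout library 77 (60.8 to 96.2). These are 0.527 and 2.95 RPM. The counting intervals of the 2 libraries did not overlap, and the ratio was 5.61 (95% interval 3.09 to 11.0). In knockout cells this was the highest value of all 1381 regions, whereas in control cells the region shared 12th place with 1 other. That other region with 13 control reads, at Gm4841, had 29 knockout reads, and 28 are the fewest that give a ratio above 2 at that control count. Among the 11 regions with at least 43 knockout reads, the count of 2810474O19Rik, Atf7ip also had the highest ratio, ahead of 4.94 at Znrd1. That cut matters, since Fbxl12os, with 41 knockout reads, had a ratio of 9.70. Over the whole table the Atf7ip ratio ranked 209th, with 84.9% of regions below it.

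At 2810474O19Rik the control library had 17 reads (9.90 to 27.2) and the knockout library 43 (31.1 to 57.9), or 0.689 and 1.65 RPM. The ratio was 2.39 (1.34 to 4.48), and again the counting intervals of the libraries did not overlap. This region was already the 6th highest of the table in control cells and was the 11th highest in knockout cells. Its ratio was among the lower ones, with 18.9% of regions below it, and 36 knockout reads would have been enough for entry at 17 control reads. That rank depends on depth. At 1 control read, the count of 640 regions, the fewest knockout reads were 3, which give a ratio of 2.84. The regions with more control reads than 2810474O19Rik had ratios from 2.07 to 2.51. The high knockout level of 2810474O19Rik thus came with a high control level.

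At Setdb1 the control library had 2 reads (0.24 to 7.22) and the knockout library 9 (4.12 to 17.1), or 0.081 and 0.345 RPM. The intervals of the libraries overlapped, and the ratio of 4.26 (0.88 to 40.5) had equal levels inside its interval. Of the 315 regions with 2 control reads, whose knockout reads ran from 5 to 37 with a median of 6, Setdb1 shared 45th place. Both counts lay near those of the typical region, where the medians were 2 control and 6 knockout reads.

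At Dnmt3a the control library had 1 read (0.03 to 5.57) and the knockout library 4 (1.09 to 10.2), or 0.0405 and 0.153 RPM. The ratio of 3.79 ran from 0.37 to 186 within its counting interval, so a difference was not detectable at this depth. With 1 control read, 3 knockout reads suffice for entry, and 640 regions had 1 control read. A further 150 regions had exactly the reads of Dnmt3a.

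**Figure D2:**
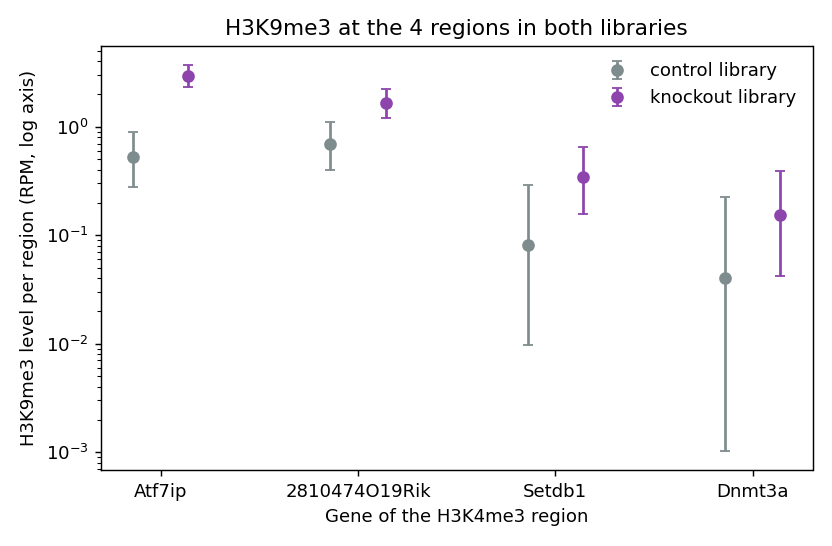
Points show the H3K9me3 level in RPM (log axis) at each of the 4 regions in the control (grey) and knockout (purple) libraries, with exact 95% Poisson counting intervals and 1 library per genotype. The intervals are apart at Atf7ip (0.527 and 2.95 RPM) and 2810474O19Rik (0.689 and 1.65 RPM) and overlap at Setdb1 and Dnmt3a.

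The order of the 4 genes changed at the top. By reads per region, 2810474O19Rik was first and Atf7ip next in control cells, but their intervals overlapped, while in knockout cells Atf7ip stood above 2810474O19Rik with intervals that did not overlap. Setdb1 and Dnmt3a followed in both libraries, with intervals that overlapped each other. Per kb of region width, the knockout library had 96.4 reads at Atf7ip (76.1 to 120), 77.9 at 2810474O19Rik (56.4 to 105), 22.6 at Setdb1 (10.3 to 42.8) and 5.59 at Dnmt3a (1.52 to 14.3). On this scale the intervals of the first pair overlapped in knockout cells as well, and Atf7ip ranked 6th and 2810474O19Rik 13th of all regions. In control cells the reads per kb were 30.8 at 2810474O19Rik (17.9 to 49.3), 16.3 at Atf7ip (8.66 to 27.8), 5.01 at Setdb1 (0.61 to 18.1) and 1.40 at Dnmt3a (0.035 to 7.79). The width of the authors' counting window is not stated in the labels or the table, and over all 1381 regions, which share both libraries, the reads of both libraries together had a Spearman's rho of -0.0449 with region width.

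Together the 4 regions held 33 reads in the control library and 133 in the knockout library, a joint ratio of 3.82 (2.59 to 5.77), beside 3.43 (3.31 to 3.57) for the whole table. Atf7ip and 2810474O19Rik supplied 120 of the 133 knockout reads and 30 of the 33 control reads. Without Atf7ip the joint ratio was 2.65 (1.57 to 4.66), and without 2810474O19Rik it was 5.33 (3.11 to 9.71). The median ratio was 4.02 over the 4 and 2.998 over the table. The median of the 4 lies between the ratios of Setdb1 and Dnmt3a, whose counting intervals include 1. At control counts as low as theirs the ratio moves in coarse steps of whole reads, so the 2 medians do not show a larger gain at these genes. The whole interval lay above 1 for 2 of the 4 regions, Atf7ip and 2810474O19Rik, and for 21.1% of the table. It lay above 2 for Atf7ip alone of the 4, and for 3.48% of the table. After 0.0405 RPM was added to both libraries, all 4 regions were at least 2-fold higher in the knockout library, as were 66.3% of the table. Since the members and the table were both chosen on these values, the counts describe the 4 regions and support nothing further.

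**Figure D3:**
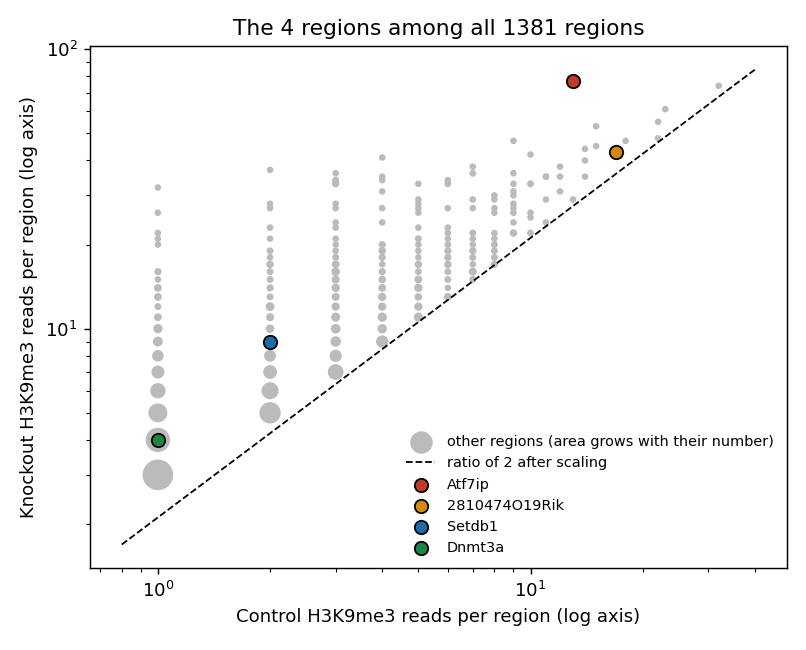
Each grey point stands for the regions with a given number of control (x) and knockout (y) H3K9me3 reads, on log axes, with a larger area for more regions, and coloured points are the 4 named regions. All points lie above the dashed line of ratio 2, Atf7ip is the highest point at 77 knockout reads, and Dnmt3a sits where 150 other regions also lie.

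The regions whose pair of levels came closest to Atf7ip, by distance on the log2(RPM + 0.0405) scale over the 2 libraries, were those of Aim2 (15 control and 53 knockout reads), Mir5103 (15 and 45) and AI506816 (14 and 44). They lay 0.56, 0.79 and 0.80 log2 units away. Atf7ip had fewer control reads and more knockout reads than each of them, but their control counts lay inside its counting interval (6.92 to 22.2). Their ratio intervals, with upper limits of 6.39, 5.49 and 5.88, overlapped that of Atf7ip (3.09 to 11.0). Closest to 2810474O19Rik were Tug1 (18 and 47 reads), Mir5103 and AI506816, at 0.15, 0.18 and 0.27 log2 units. Another 31 regions had the same 2 and 9 reads as Setdb1. With 2 libraries this likeness is only a likeness of levels.

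In knockout reads, Atf7ip was followed by Orc2, a subunit of the origin recognition complex, with 74 reads, then by 6820431F20Rik with 61, Tsnax with 55, Aim2 with 53 and 4930592C13Rik with 48. Tug1 and Znrd1 had 47 each, Mir5103 45 and AI506816 44, ahead of the 43 of 2810474O19Rik. Orc2 had 32 control reads, the most of the table, and a ratio of 2.19 (1.43 to 3.43). Atf7ip thus reached a similar knockout count from fewer control reads, and the counting intervals of the 2 ratios overlapped narrowly.

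The H3K4me3 measures of the regions did not enter the choice of the 4 genes, though each region had to be called to be listed. The heights are the authors' own values for their regions. Both libraries described here are of H3K9me3, and the headers of the H3K4me3 values name no cells or genotype. The Atf7ip region was 21.2 RPKM (reads normalized to region length and library depth) high, above 93.5% of the table, and 799 bp wide. The 2810474O19Rik region was low, at 7.82 RPKM, above 12.3% of the table, and 552 bp wide. The regions with the most H3K9me3 of the 4 thus lay near opposite ends of H3K4me3 height. Setdb1 had 8.65 RPKM over 399 bp, a narrow region with 13.6% of the table below it in width, and Dnmt3a had 11.7 RPKM over 715 bp, close to the table medians of 11.0 RPKM and 680 bp. Over the negative library of the authors' region caller, the log2 H3K4me3 enrichment was 5.82 at Atf7ip, 4.40 at Dnmt3a, 3.78 at 2810474O19Rik and 3.16 at Setdb1, with a table median of 4.37. Across all regions, H3K4me3 height had a Spearman's rho of -0.0464 with the H3K9me3 reads of both libraries together.

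**Figure D4:**
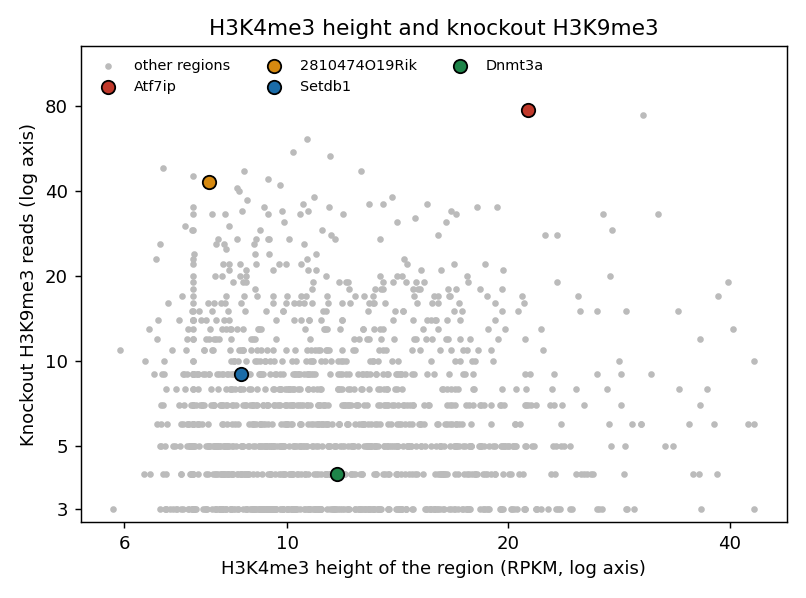
Points show the H3K4me3 height in RPKM (x) and the knockout H3K9me3 reads (y) of all 1381 regions, on log axes, with the 4 named regions in colour. Atf7ip lies high on both (21.2 RPKM, 77 reads), whereas 2810474O19Rik has 43 reads at a height of 7.82 RPKM.

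Atf7ip and 2810474O19Rik are on the same chromosome, 12.8 Mb apart, and both stood alone among the listed regions. Only regions with a ratio above 2 are listed, so H3K9me3 at unlisted sites nearby is not known. The nearest listed region of another gene was 1621101 bp from Atf7ip, at 2810454H06Rik with 1 control and 3 knockout reads, and 4097673 bp from 2810474O19Rik, at Etfrf1, also with 1 and 3 reads. In all, 38.2% of the regions had no other within 500 kb and 24.1% had none within 1 Mb. Setdb1 had 2 listed neighbours within 500 kb, the nearer being Sema6c at 195558 bp (1 and 4 reads), and Dnmt3a had 1, Ptrhd1 at 341749 bp (1 and 4 reads). The table median of this distance was 300002 bp.

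Of 52 genes whose products write, bind or remove H3K9 or DNA methylation or partner such proteins, 6 had a region in the table (11.5%): the 4 genes above, Mbd1 and Prdm2. Over all 21900 RefSeq genes that code for proteins the share was 5.45%, which also counts genes that could not be listed because they had no H3K4me3 region. The 4 genes above were chosen from the table itself, so setting these shares side by side does not test the list. With the 4 left out, only 2 genes of the list, Mbd1 and Prdm2, had a region and 46 had none, so the higher share of the list rests on the 4 chosen genes. All 6 genes with a region were higher in the knockout library, as the table requires, with a median ratio of 4.34 beside 2.998 over the table. The interval lay above 1 for 4 of the 6, and for 21.1% of the table. Both this count and the median include Atf7ip and 2810474O19Rik, which were picked for high knockout levels, so neither tests the list. Mbd1, which binds methylated CpG and whose human protein recruits the human counterpart of Atf7ip, had 4 reads in control and 19 in knockout cells, a ratio of 4.50 (1.49 to 18.2). Its H3K4me3 region was 39.8 RPKM high and began 39 bp downstream of the start. Prdm2, a member of the PR domain family linked to H3K9 methylation, had 3 and 14 reads, a ratio of 4.42 (1.23 to 24.0), in a region 288 bp wide that ended 192 bp before the start. The intervals of the 6 genes overlapped one another. The other 46 genes, among them Trim28, Suv39h1, Suv39h2, Ehmt1, Ehmt2, Cbx5, Dnmt1, Dnmt3b and the Kdm4 genes, had no listed region. That can mean no H3K4me3 region near the start, a ratio at or under 2, or a control count of 0.

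**Figure D5:**
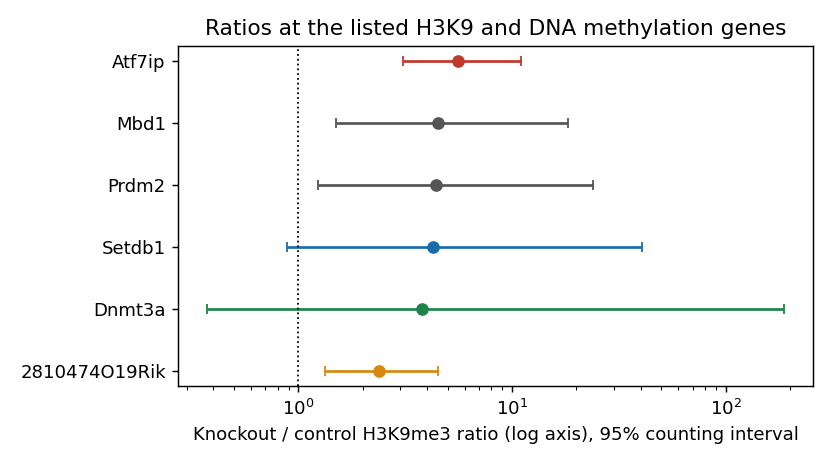
Points show the knockout to control H3K9me3 ratio (log axis) with its exact 95% counting interval at the 6 listed genes of H3K9 and DNA methylation, and the dotted line marks a ratio of 1. The ratios run from 2.39 at 2810474O19Rik to 5.61 at Atf7ip, and the intervals of Setdb1 and Dnmt3a include 1.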

How the data were processed

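Reads were trimmed with Trimmomatic and aligned with Bowtie2 to mm10, per the submitters' processing notes. Which program called regions, the counting window and how duplicates and repeats were handled is not given in the sources used here. As deposited by the authors, H3K9me3 is in RPM with the ratio of knockout to control values, and per region an H3K4me3 RPKM and a log2 enrichment over the caller's negative library. A further 12 caller columns were not used.

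All values of both libraries (100.0% within 0.01 reads) were whole multiples of 0.0405 RPM (control) and 0.0384 RPM (knockout), and reads were recovered from these steps. With 1 library per genotype no test between genotypes was possible. Ratio intervals are exact (Clopper-Pearson, 95%) and level intervals exact Poisson. Without molecular identifiers PCR reads are not independent, so both cover counting error only, and neither accounts for the selection of the table on the ratio. The pseudocount was 0.0405 RPM, the 5th percentile of nonzero values. Positions, half-open as deposited, are printed 1-based. The 4 genes matched RefSeq, 1 of them by an older symbol. Python 3.11.15 and scipy 1.17.1 were used.

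The members and gene lists were chosen with earlier results of these data known. Named were the 4 genes, listed genes of a list of 52 for H3K9 and DNA methylation, the 10 regions highest in the knockout library, and the 3 closest in level to each member, or the number tied with it. Gm4841, the nearest neighbours of the regions and listed genes without a region were named after their values were seen. Alternatives were scaling, pseudocount, interval level, fold, read filter, ranking per kb, and leaving out genes.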

Additional observations from a re-analysis of the deposited data

How the results depend on the processing

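No paired analysis was possible because each genotype has 1 library, and no replicate could be left out. Setting the table-wide read sums of the libraries equal gave a ratio of 1.63 at Atf7ip, 1.24 at Setdb1, 1.10 at Dnmt3a and 1.11 over the 4 regions. At 2810474O19Rik it reversed the direction, to 0.70. This scaling divides every ratio by 3.43, because the table holds only ratios above 2. Unscaled reads kept each ratio inside its interval, and 99% intervals left the same 2 regions above 1. Regions at least 2-fold higher fell from 4 to 2 with a pseudocount 5 times larger and was 2 at a 3-fold threshold. Setdb1 and Dnmt3a were the regions lost with the larger pseudocount, at log2 ratios of 0.95 and 0.55. Ranked per kb of width, knockout levels moved Atf7ip from 1 to 6 and Setdb1 from 383 to 231. Depth limits Setdb1 and Dnmt3a: Dnmt3a held fewer than 10 reads in both libraries together, as did 803 regions of the table.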
